A study of Homo sapiens with 6 samples.

Results

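Secreted WNT antagonists are extracellular proteins that lower WNT signalling before it enters the cell. Of 19775 genes with a probe set of their own on the array, 10 were examined: DKK1, DKK2, DKK3, SFRP1, SFRP2, SFRP4, WIF1, SOSTDC1, NOTUM and APCDD1. Their probe sets are those whose annotated symbol is exactly 1 of these names. That gave 22 of 54613 probe sets, with 6 for DKK3, 4 for SFRP1, 2 each for DKK2, SFRP2, SFRP4 and APCDD1, and 1 each for DKK1, WIF1, SOSTDC1 and NOTUM. All 10 symbols are also the current ones in RefSeq (GRCh38.p14).

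The cells were VCaP, a human prostate cancer line that carries the TMPRSS2/ERG gene fusion, grown in medium with fetal bovine serum. They were transfected with SOX9 siRNA A, SOX9 siRNA B or a control siRNA. RNA was collected after 72 h, with 2 arrays in each of the 3 groups. SOX9 is a DNA-binding factor that the series title connects with the WNT pathway. All 3 groups share 1 cell line and the transfection, so the data describe 1 tumour's cells in culture without stroma or other tissue.

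In the canonical WNT pathway a WNT ligand binds a Frizzled receptor together with LRP5 or LRP6, and beta-catenin then accumulates and acts with TCF/LEF factors on target genes. SFRP proteins carry a Frizzled-like domain and WIF1 a WIF domain, both of which bind WNT ligands. DKK1 and DKK2 bind LRP5 and LRP6, while DKK3 is a divergent family member whose action on WNT signalling is less settled. SOSTDC1 is a cystine-knot protein that binds LRP6 and also BMP ligands. NOTUM is an enzyme that removes the lipid from WNT ligands, and APCDD1 is a membrane glycoprotein that binds WNT and LRP5, so it is held at the cell surface. Several of these genes, DKK1, NOTUM and APCDD1 among them, are known targets of beta-catenin and TCF, which makes them negative feedback regulators. Silencing of SFRP1, WIF1 and DKK3 by promoter methylation is well known in prostate cancer.

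The promoter table from RefSeq (GRCh38.p14) matched 5 of the 10 genes, DKK1, SFRP2, SFRP4, WIF1 and APCDD1. The 250 bases before the start are shown for WIF1 and APCDD1, which were measured above background, and for DKK1, a textbook TCF target that was not. The motifs were chosen with the array values known. The search covered CTTTGA (a TCF/LEF core), CTTTGT (read as ACAAAG on the other strand, a core that fits both TCF/LEF and SOX factors) and AACAAT (a SOX core), on both strands. Capitals mark the matches.
DKK1 promoter, GRCh38.p14 chr10:52314031-52314280, plus strand: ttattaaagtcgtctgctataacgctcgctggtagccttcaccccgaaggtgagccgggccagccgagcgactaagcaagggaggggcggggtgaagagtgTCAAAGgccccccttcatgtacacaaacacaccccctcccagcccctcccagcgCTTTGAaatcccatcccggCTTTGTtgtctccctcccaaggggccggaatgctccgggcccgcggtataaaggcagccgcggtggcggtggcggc
WIF1 promoter, GRCh38.p14 chr12:65121306-65121555, minus strand: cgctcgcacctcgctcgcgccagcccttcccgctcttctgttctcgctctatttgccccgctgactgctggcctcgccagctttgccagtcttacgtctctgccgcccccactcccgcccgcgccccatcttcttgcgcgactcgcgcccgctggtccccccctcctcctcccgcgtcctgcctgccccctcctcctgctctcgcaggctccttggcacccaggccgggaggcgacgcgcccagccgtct
APCDD1 promoter, GRCh38.p14 chr18:10454385-10454634, plus strand: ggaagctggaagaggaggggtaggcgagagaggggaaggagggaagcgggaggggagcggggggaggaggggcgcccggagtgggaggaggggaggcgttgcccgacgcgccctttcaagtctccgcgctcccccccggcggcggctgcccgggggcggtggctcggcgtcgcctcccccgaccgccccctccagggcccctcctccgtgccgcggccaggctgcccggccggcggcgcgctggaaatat
DKK1 had 2 matches to CTTTGA, the first read on the other strand at 149 to 144 bases before the start and the second at 95 to 90, and 1 to CTTTGT, at 76 to 71, and the WIF1, APCDD1, SFRP2 and SFRP4 windows had 0 matches to any of the 3. Of 35116 promoter windows of this length, 11.2% held CTTTGA, 13.7% CTTTGT and 8.98% AACAAT. A match is a description of the letters and not a measured binding site, and the lack of one concerns this window alone. GC content was 62.8% in the DKK1 window, 71.6% in that of WIF1 and 77.2% in that of APCDD1.

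The deposited table holds signals without detection calls, so background was set from probe sets of genes restricted to other tissues. These were 202 probe sets of olfactory and taste receptor, hair keratin-associated and lens crystallin genes, and the background level of an array was the 95th percentile of their signals. That level was 25.8 and 30.5 with SOX9 siRNA A, 33.2 and 40.0 with SOX9 siRNA B, and 32.5 and 33.9 with control siRNA (replicates 1 and 2 in each). Between 42.1% and 47.7% of all probe sets lay above it on an array. A probe set was taken as above background in a group when both of its arrays were.

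By this rule 7 of the 22 probe sets, from 5 genes, were above background in at least 1 group. They were 3 of SFRP1 (202035_s_at, 202036_s_at and 202037_s_at) and 1 each of WIF1 (204712_at), SOSTDC1 (213456_at), APCDD1 (225016_at) and DKK3 (214247_s_at). SOSTDC1, WIF1 and SFRP1 202037_s_at were above background on all 6 arrays. In all, 5 member probe sets were above background with SOX9 siRNA A, 3 with SOX9 siRNA B and 6 with control siRNA. Another 14 were above it on none of the arrays, and the last, APCDD1 240211_at, on 1 control array.

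DKK1, DKK2, SFRP2, SFRP4 and NOTUM had no probe set above background in any group. DKK1 signals were 22.6 and 18.6 with SOX9 siRNA A, 18.5 and 18.7 with SOX9 siRNA B, and 8.9 and 19.2 with control siRNA. NOTUM gave 23.1 and 6.0 with SOX9 siRNA A, 11.6 and 16.5 with SOX9 siRNA B, and 4.4 and 30.6 with control siRNA. For both genes the groups overlapped, and no fold change is given for a signal under background on both sides. Over all their arrays DKK2 ran from 0.3 to 11.0, SFRP2 from 0.8 to 17.7 and SFRP4 from 0.6 to 36.1. The SFRP4 maximum, on replicate 2 of SOX9 siRNA B, was still under that array's level of 40.0. The array detected no transcript of these 5 genes above background, which does not show that they were absent.

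**Figure D1:**
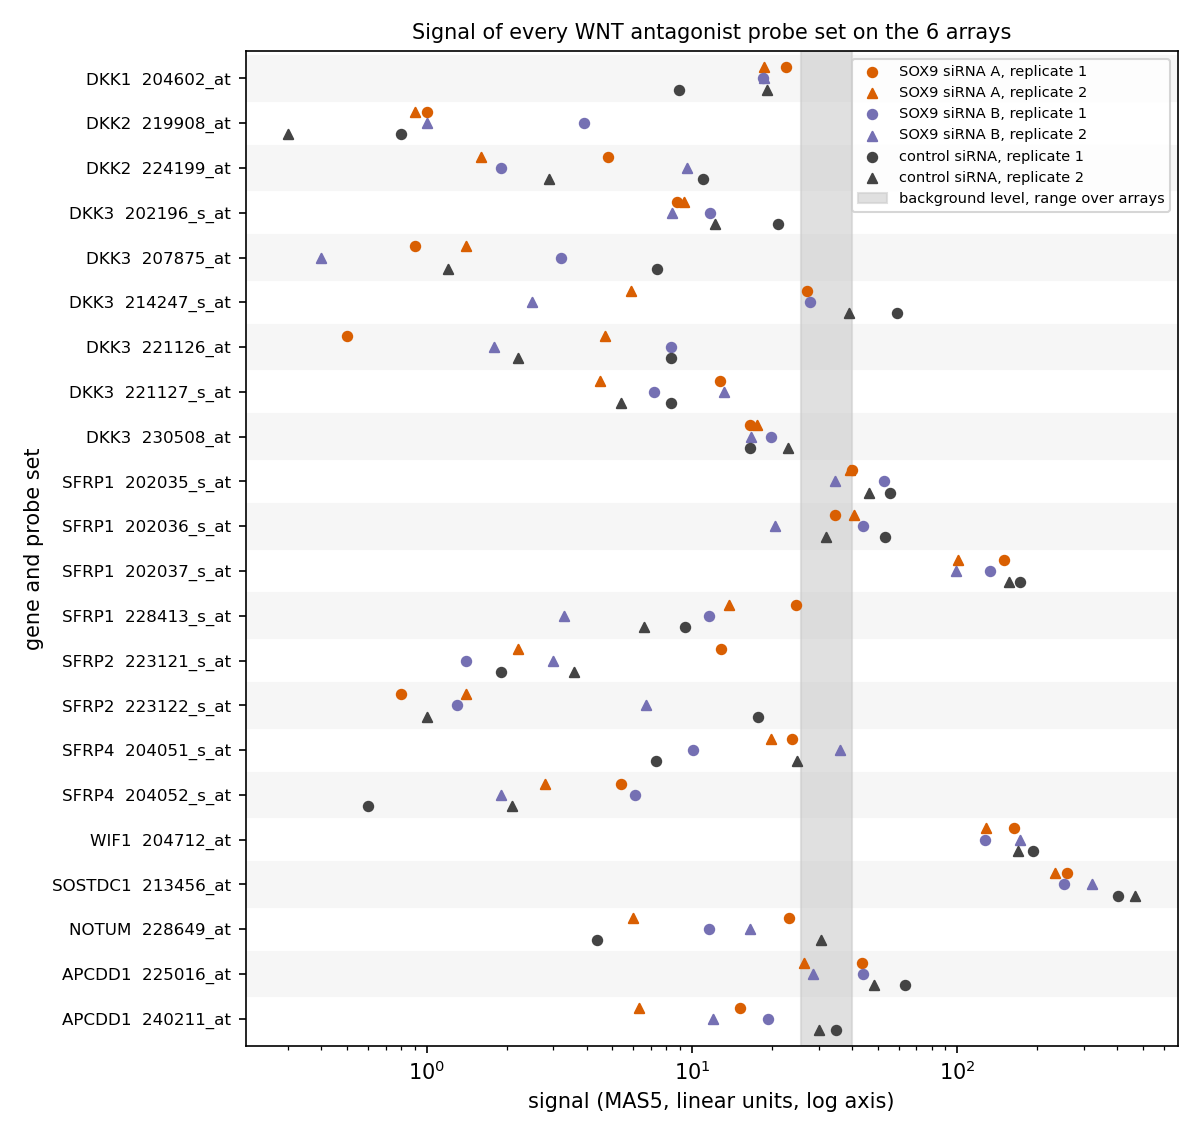
Signal of each of the 22 probe sets on each of the 6 arrays (x axis, MAS5 signal on a log axis; y axis, gene and probe set), with each group in its own colour and replicates 1 and 2 as circles and triangles. The grey band spans the background levels of the arrays, 25.8 to 40.0; SOSTDC1, WIF1 and SFRP1 202037_s_at lie to its right on every array, while most probe sets of the DKK, SFRP2, SFRP4 and NOTUM genes lie to its left.

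The labels were first checked against the targeted gene. The 2 SOX9 probe sets averaged 890 ± 308 and 723 ± 194 with SOX9 siRNA A, 471 ± 195 and 431 ± 196 with SOX9 siRNA B, and 1298 ± 243 and 1414 ± 204 with control siRNA (SD, n = 2 each), and in both every SOX9 siRNA array was under the lower control. Their log2 fold changes for both siRNAs, in the fit described next, were -1.02 and -1.36 (limma adjusted p = 0.571 and 0.328, and 0.00141 and 3.25e-06 with arrays paired by number). They were -0.57 and -0.97 for SOX9 siRNA A, and -1.48 and -1.74 for SOX9 siRNA B. Neither siRNA alone passed in the unpaired fit. Paired by number, SOX9 siRNA B passed in both, and SOX9 siRNA A (limma adjusted p = 0.545 and 0.0330) in the second only. In the first probe set replicate 1 of SOX9 siRNA A had 1108, close to the lower control at 1126. Among 9 luminal and VCaP markers with a probe set (KLK2, KLK3, TMPRSS2, ERG and KRT18 among them), all 9 were above background in at least 1 group. Of 9 fibroblast and stromal markers, cells that make several WNT antagonists in tissue, COL1A2, COL3A1, DCN, FAP, PDGFRA, PDGFRB and THY1 were above background on none of the arrays, while COL1A1 and LUM were. The summed signal of the 9 was 428 and 753 with SOX9 siRNA A, 1014 and 2309 with SOX9 siRNA B, and 375 and 566 with control siRNA. LUM alone had 262 and 662 with SOX9 siRNA A, 702 and 2019 with SOX9 siRNA B, and 155 and 385 with control siRNA. In smooth muscle 1 of 4 markers was above background, in endothelium 1 of 4, in basal epithelium 1 of 2 and in leukocytes 0 of 3. The summed smooth muscle signal was 122 and 93.3 with SOX9 siRNA A, 114 and 97.3 with SOX9 siRNA B, and 151 and 148 with control siRNA. Whether these markers bear on the results was not tested. The replicate 2 arrays of SOX9 siRNA A and SOX9 siRNA B departed together from the others, as in the BMP target ID1 (2372 and 4439 there, against 417 to 637 on the other 4), so results are also given without them. In bulk RNA, fewer expressing cells and less RNA per cell cannot be told apart.

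For the comparisons, log2(signal + 16) was fitted with limma over the 27307 probe sets with a mean at or above the median of all, a signal of 22.0, with calls at an adjusted p below 0.05 (Benjamini-Hochberg). Fold changes are on this scale, which understates changes of dim probe sets. The 7 probe sets above background were also the 7 that passed this filter, and 15 did not. DKK3 214247_s_at and APCDD1 225016_at reached background on both arrays of the control group only, so they were open to selection for being high there, and the counts and median over the 7 are given as a description.

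None of the 7 was called for both SOX9 siRNAs against control siRNA, where the test called 0.00366% of all probe sets (1 of 27307). All 7 had a negative log2 fold change, as did 53.8% of all probe sets tested, and their median was -0.42 against -0.03 over all. Their limma adjusted p ran from 0.616 to 0.930, and 2 (DKK3 and SOSTDC1) had an unadjusted p below 0.05, against 6.9% of all probe sets. In 4 of the 7 (DKK3, SFRP1 202037_s_at, SOSTDC1 and APCDD1) every SOX9 siRNA array was below both control arrays. The same held for 11.5% of all probe sets above background in a group. Only DKK3 and SOSTDC1, 2 of the 7, still met it after quantile normalization (9.88% of all), centring on the median (8.96%) or a shared trimmed mean (10.2%), while all 7 fold changes stayed negative. It was 5 of 7 without replicate 2 of both SOX9 siRNAs, where 24.9% of all probe sets met it, and 5 of 7 without their replicates 1, where 23.3% did.

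Among the WNT-binding antagonists, SFRP1 had the probe set with the clearer separation. SFRP1 202037_s_at had signals of 149.6 and 100.6 with SOX9 siRNA A, 132.7 and 98.9 with SOX9 siRNA B, and 171.7 and 156.3 with control siRNA. Both SOX9 siRNA groups lay below control, and within each the replicate 2 array was the lower. After quantile normalization, median centring or a common trimmed mean, not every SOX9 siRNA array was below both controls. Its log2 fold change for both siRNAs was -0.42 (SE 0.25, limma adjusted p = 0.785), or 74.9% of control, with -0.37 for SOX9 siRNA A and -0.46 for SOX9 siRNA B. It was -0.20 without replicate 2 of both SOX9 siRNAs and -0.64 without their replicates 1.

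The other SFRP1 probe sets were dimmer and did not separate the groups. SFRP1 202035_s_at had 40.1 and 39.3 with SOX9 siRNA A, 52.7 and 34.5 with SOX9 siRNA B, and 55.7 and 46.3 with control siRNA. SFRP1 202036_s_at had 34.5 and 40.8 with SOX9 siRNA A, 44.0 and 20.6 with SOX9 siRNA B, and 53.5 and 31.9 with control siRNA. In the first, 3 of 4 SOX9 siRNA arrays were below both controls, and in the second 1 of 4. Their log2 fold changes were -0.22 and -0.20 (SE 0.25 and 0.28), and that of 202036_s_at changed sign, to 0.065, without control replicate 1. SFRP1 228413_s_at, from 3.3 to 24.6, was under background throughout.

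WIF1 was above background on every array, and the groups overlapped. Its signals were 164.0 and 127.8 with SOX9 siRNA A, 127.0 and 172.2 with SOX9 siRNA B, and 192.9 and 169.7 with control siRNA. Replicate 2 of SOX9 siRNA B lay between the control arrays, and the other 3 SOX9 siRNA arrays lay below both. The log2 fold change for both siRNAs was -0.28 (SE 0.24, limma adjusted p = 0.882), with an unadjusted 95% interval of -0.79 to 0.24. The interval of SFRP1 202037_s_at was -0.94 to 0.11, so for both genes it included 0.

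SOSTDC1, which acts on LRP6 and on BMP ligands, was well above background on every array and separated the groups. It had 260 and 234 with SOX9 siRNA A, 251 and 322 with SOX9 siRNA B, and 401 and 468 with control siRNA. Every array with a SOX9 siRNA was well under the lower control. It averaged 247 ± 18.5 with SOX9 siRNA A, 287 ± 50.0 with SOX9 siRNA B and 434 ± 46.7 with control siRNA (SD, n = 2 each). The log2 fold change for both siRNAs was -0.68 (SE 0.24), or 62.5% of control, and did not pass (limma adjusted p = 0.636; unadjusted p = 0.0140), nor did it with the replicate number as a block (limma adjusted p = 0.112). It was -0.78 for SOX9 siRNA A and -0.58 for SOX9 siRNA B. With only the replicate 1 arrays of the SOX9 siRNAs it was -0.73 and with only their replicates 2 -0.63, both close to the value from all arrays.

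DKK3 214247_s_at separated the groups at signals near background. It had 27.0 and 5.9 with SOX9 siRNA A, 27.8 and 2.5 with SOX9 siRNA B, and 59.3 and 39.0 with control siRNA. Both control arrays were above background, with SOX9 siRNA A only replicate 1 was, and with SOX9 siRNA B neither array was. The SOX9 siRNA B arrays were set to their background levels, which gave a mean of 5.71 on the log2(signal + 16) scale (measured mean 4.83). The control mean was 6.01, a bound of 1.23-fold on the measured means, which carries no error from 2 arrays a group. Control replicate 2, at 39.0, was under the background level of SOX9 siRNA B replicate 2 (40.0). The probe set reached background on both arrays in control only, so it was open to selection for being high there. The fitted log2 fold changes were -1.12 for both siRNAs (SE 0.37, limma adjusted p = 0.616), -1.07 for SOX9 siRNA A and -1.18 for SOX9 siRNA B, and their size is uncertain since the SOX9 siRNA signals lie near or under background.

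With the replicate number as a block, a fit in which same-numbered arrays are taken as pairs, DKK3 214247_s_at passed for both siRNAs (limma adjusted p = 0.00337) and for SOX9 siRNA B (limma adjusted p = 0.00786), and not for SOX9 siRNA A (limma adjusted p = 0.0534). That fit called 3.01%, 5.6% and 1.3% of all probe sets in these comparisons, and it took the spread from limma's trend alone, so its p-values can be too small. Without replicate 2 of both SOX9 siRNAs, in a fit that took the remaining SOX9 siRNA arrays as 1 group, the log2 fold change was -0.57 (limma adjusted p = 0.958). Without their replicates 1 the probe set did not reach the filter.

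The other 5 DKK3 probe sets were under background on every array. DKK3 202196_s_at had 8.8 and 9.3 with SOX9 siRNA A, 11.7 and 8.4 with SOX9 siRNA B, and 21.0 and 12.2 with control siRNA, which places all 4 SOX9 siRNA arrays below both controls at signals that carry no fold change. The probe sets 207875_at, 221126_at, 221127_s_at and 230508_at overlapped between the groups. The statement on DKK3 thus rests on 1 of its 6 probe sets.

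APCDD1, the membrane-bound inhibitor, was also near background. APCDD1 225016_at had 43.5 and 26.5 with SOX9 siRNA A, 43.9 and 28.5 with SOX9 siRNA B, and 63.5 and 48.6 with control siRNA. All 4 SOX9 siRNA arrays were below both control arrays as deposited, but not after quantile normalization, median centring or a common trimmed mean. The replicate 2 arrays of both SOX9 siRNAs were under background. Its log2 fold change for both siRNAs was -0.49 (SE 0.26, limma adjusted p = 0.762), with -0.51 for SOX9 siRNA A and -0.47 for SOX9 siRNA B. The value was -0.26 without replicate 2 of both SOX9 siRNAs and -0.72 without their replicates 1.

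The second APCDD1 probe set, 240211_at, had 15.1 and 6.3 with SOX9 siRNA A, 19.4 and 12.0 with SOX9 siRNA B, and 34.8 and 30.0 with control siRNA. It reached background on replicate 1 of control alone. With control replicate 2 under background as well, no fold change is given. As deposited, both APCDD1 probe sets had the SOX9 siRNA arrays below control, mostly at signals that the array measures poorly. Neither reached background on both arrays of a SOX9 siRNA group, so their agreement is a description.

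**Figure D2:**
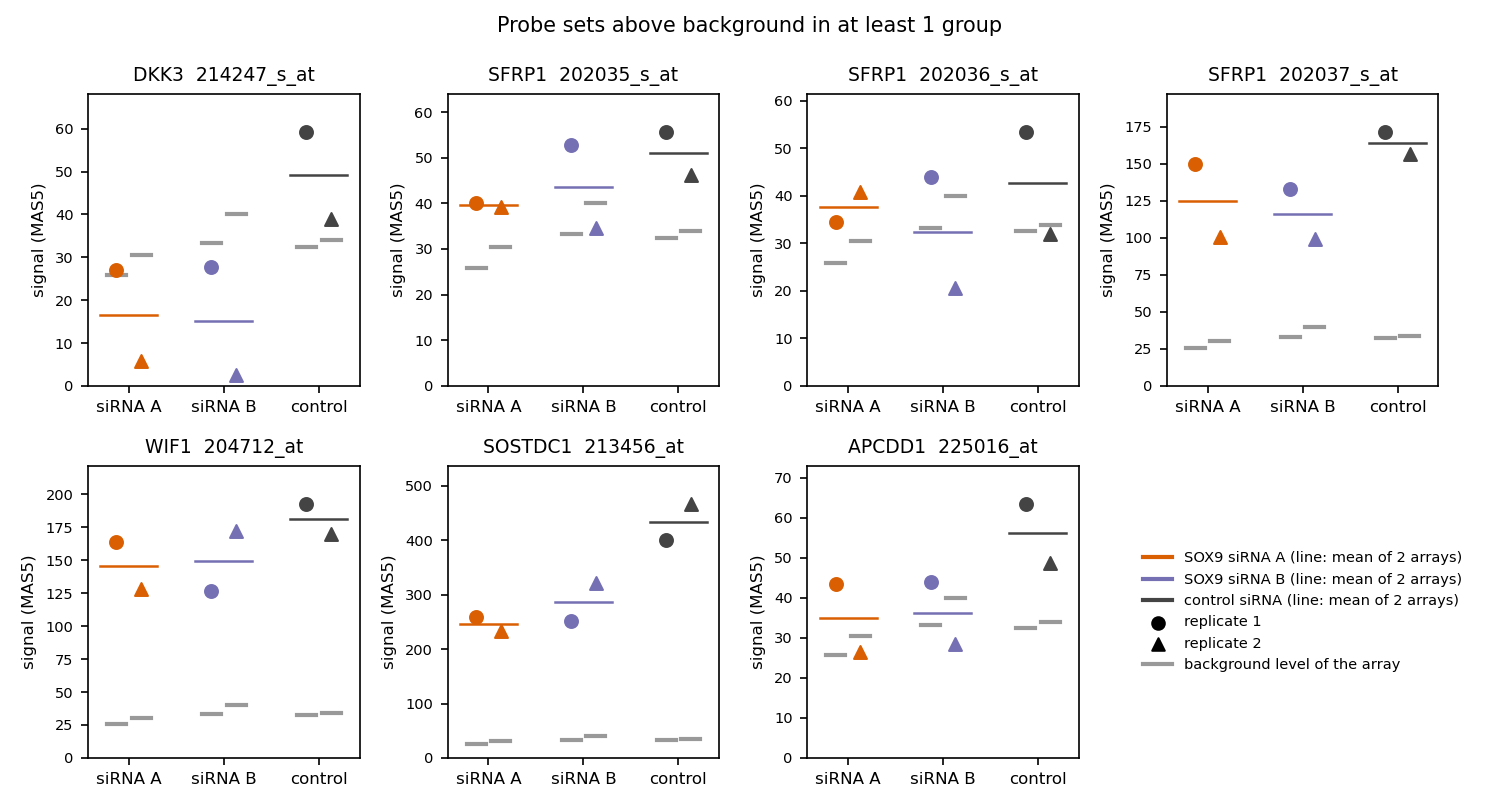
Signals (y axis, MAS5 linear units from 0) of the 7 probe sets above background in at least 1 group, by group (x axis); circles are replicate 1, triangles replicate 2, coloured lines the mean of 2 arrays and grey bars the background level of each array. SOSTDC1 has 234 to 322 in the SOX9 siRNA arrays and 401 and 468 in control, far from background, while DKK3 and APCDD1 sit close to the grey bars.

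The 7 probe sets fell into different patterns across replicates. For SFRP1 202037_s_at replicate 2 minus replicate 1 on the log2 scale was -0.51 with SOX9 siRNA A, -0.37 with SOX9 siRNA B and -0.12 with control siRNA. Like APCDD1 225016_at and DKK3 214247_s_at, whose replicate 2 signals with the SOX9 siRNAs were under background, it was lower on replicate 2 in every group. SOSTDC1 had -0.14 with SOX9 siRNA A, 0.34 with SOX9 siRNA B and 0.21 with control siRNA, and WIF1 -0.32 with SOX9 siRNA A, 0.40 with SOX9 siRNA B and -0.17 with control siRNA, with no common direction. Set against the control of the same number, SOSTDC1 was lower in each of the 4 pairs, with differences of -0.60 and -0.95 with SOX9 siRNA A and of -0.64 and -0.52 with SOX9 siRNA B. DKK3 214247_s_at, SFRP1 202035_s_at, SFRP1 202037_s_at and APCDD1 225016_at were also lower in each of the 4 pairs. WIF1 was lower in 3 of the 4 pairs and 0.02 higher in replicate 2 of SOX9 siRNA B. SFRP1 202036_s_at was 0.25 higher in replicate 2 of SOX9 siRNA A and lower in the other pairs. The share of all probe sets lower in each of the 4 pairs was not computed, so these counts are a description. DKK3 and APCDD1 were also open to selection for being high in control. Over the 6 arrays DKK3 214247_s_at correlated at 0.98 with both SFRP1 202037_s_at and APCDD1 225016_at, and SOSTDC1 at 0.77 with WIF1, 0.58 with APCDD1 and 0.54 with DKK3 (Pearson, log2 scale). These arrays share groups and replicate numbers, and the DKK3 and APCDD1 values include signals under background, so the correlations are a description.

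By the same measure the genes outside the 10 most like DKK3 were BMP8B, TBC1D1 and SGPP2 (r of 0.993, 0.992 and 0.990 over 6 arrays). Those most like SOSTDC1 were MPZL2, GALNT7 and PRR7 (0.993, 0.964 and 0.956), and those most like APCDD1 were PHETA2, PYROXD2 and RFLNB (0.993, 0.987 and 0.986). Among 3210 genes with a log2 range of at least 1, 282 had an r above 0.9 with DKK3 and 227 with APCDD1, against 21 with SOSTDC1. GALNT7 had signals of 757 and 657 with SOX9 siRNA A, 694 and 1197 with SOX9 siRNA B, and 1734 and 1598 with control siRNA.

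Whether the SOX9 siRNAs differed was tested directly, as SOX9 siRNA A against SOX9 siRNA B. Of the 7, 0 were called, against 0.0476% of all probe sets (13 of 27307), with limma adjusted p from 0.966 to 0.997 and 0 of 7 at an unadjusted p below 0.05 (7.48% of all). The difference was -0.20 for SOSTDC1 (unadjusted 95% interval -0.80 to 0.40), 0.11 for DKK3 214247_s_at (-0.79 to 1.01), -0.04 for APCDD1 225016_at (-0.68 to 0.61) and -0.03 for WIF1 (-0.62 to 0.57). For DKK3 the interval allows a difference of about 1 log2 unit either way, so the data do not show that the siRNAs acted alike. Against control, SOX9 siRNA A alone called 0 of the 7 and 0.00732% of all (limma adjusted p = 1.00 for each of the 7, with 2 at an unadjusted p below 0.05, as had 3.86% of all). SOX9 siRNA B alone called 0 of the 7 and 0.0623% of all (limma adjusted p from 0.341 to 0.878, with 1 at an unadjusted p below 0.05, as had 10.3% of all). Both comparisons share the control arrays.

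**Figure D3:**
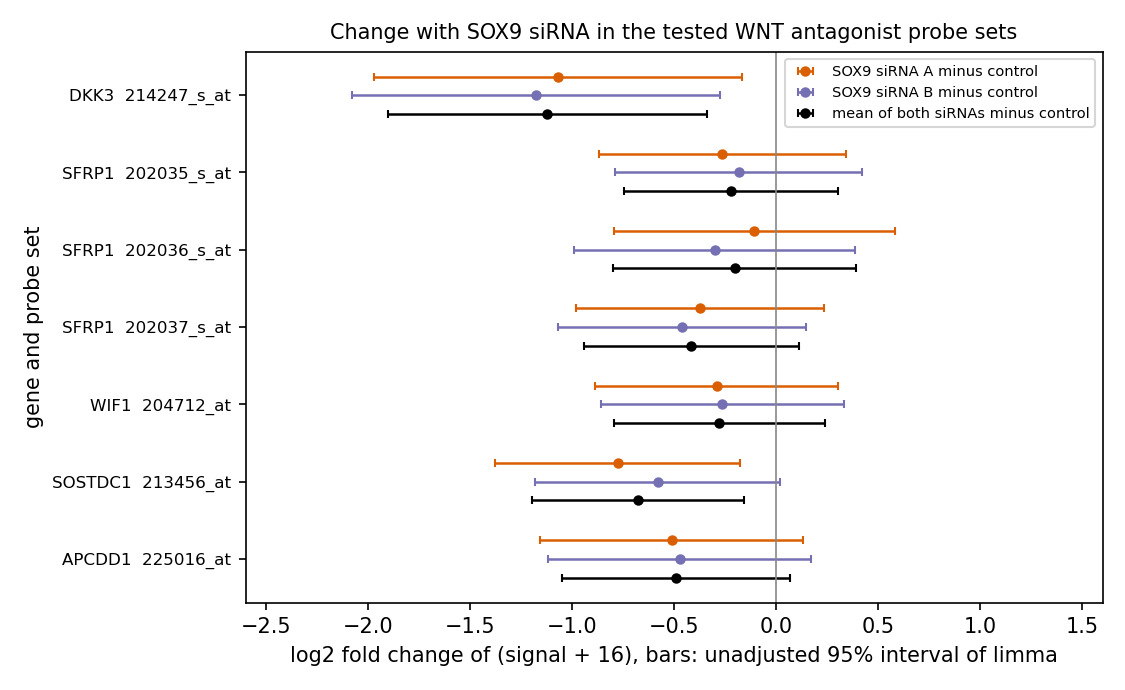
Log2 fold change (x axis, log2 of signal + 16) of the 7 tested probe sets (y axis) for SOX9 siRNA A, SOX9 siRNA B and the mean of both against control siRNA, with unadjusted 95% intervals from limma. All estimates are negative, and for both siRNAs the interval lies wholly below 0 for DKK3 (-1.90 to -0.34) and SOSTDC1 (-1.20 to -0.16).

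Most other inhibitors that act outside the cell or at its surface were under background too. Of 16 such genes 5 were tested, with a median log2 fold change of -0.42, and 11 were above background on none of the arrays, among them DKK4, SFRP5, FRZB and SOST. KREMEN1 and KREMEN2, receptors through which DKK proteins remove LRP6 from the surface, had log2 fold changes of -0.48 and -0.53. The glypican GPC3 had -0.42, and the ubiquitin ligases ZNRF3 and RNF43, which clear Frizzled receptors, had -0.23 and 0.19. Without replicate 2 of both SOX9 siRNAs KREMEN1 had -0.03, KREMEN2 -0.59, GPC3 -0.46, ZNRF3 -0.04 and RNF43 0.01. The KREMEN1 value thus rested on those replicate 2 arrays. Of the 5, 0 passed, with or without the replicate block. KREMEN2 had 41.6 and 30.8 with SOX9 siRNA A, 16.2 and 30.3 with SOX9 siRNA B, and 44.9 and 53.0 with control siRNA. All 4 SOX9 siRNA arrays were below both controls, as in 11.5% of all probe sets above background in a group. Both SOX9 siRNA B arrays were under background, so the size of its change is uncertain.

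Among the partners of the antagonists, FZD7 had the largest difference. Of 13 WNT receptors tested 0 were called for both siRNAs, and 9 had a negative value, with a median of -0.31. FZD7, a Frizzled receptor, had 74.8 and 34.7 with SOX9 siRNA A, 41.5 and 19.6 with SOX9 siRNA B, and 162 and 202 with control siRNA. Its log2 fold change was -1.83 (limma adjusted p = 0.0824). It passed for SOX9 siRNA B alone (limma adjusted p = 0.0357) and, with arrays paired by number, for both siRNAs (limma adjusted p = 7.32e-12). SOX9 siRNA A alone passed only in the paired fit (limma adjusted p = 9.66e-06, against 0.614 unpaired). The paired fit called 3.01% of all probe sets for both siRNAs, and its p-values can be too small. With SOX9 siRNA B only replicate 1 of FZD7 was above background, so the size of that change is uncertain. FZD7 had -1.44 without replicate 2 of both SOX9 siRNAs (limma adjusted p = 0.315). LRP5 and LRP6, the co-receptors that DKK1 and SOSTDC1 bind, had -0.31 and -0.14 and did not pass. Of 4 WNT ligands tested 0 were called. WNT5A had 0.97 (limma adjusted p = 0.636, and 0.00404 with the replicate block) and 0.46 without replicate 2 of both SOX9 siRNAs. WNT2 had -0.65, a mean of unlike values: -0.17 for SOX9 siRNA A and -1.13 for SOX9 siRNA B. The latter had limma adjusted p = 0.223, and 0.00277 with the replicate block. Its signals were 486 and 282 with SOX9 siRNA A, 223 and 148 with SOX9 siRNA B, and 370 and 473 with control siRNA. SOX9 siRNA A against SOX9 siRNA B was 0.97 (limma adjusted p = 0.408, and 0.0278 with the replicate block). Without replicate 2 of both SOX9 siRNAs WNT2 had -0.33. R-spondin ligands were not tested, and LGR4, an R-spondin receptor, had -0.32.

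Inside the cell, 16 inhibitors of the pathway were tested and 0 were called. CTNNBIP1, which keeps beta-catenin from TCF, had -0.64, and AXIN1, APC and GSK3B, parts of the complex that degrades beta-catenin, had -0.07, 0.02 and 0.04. TLE4 and TLE2, co-repressors of TCF, had 1.05 and -0.76 (limma adjusted p = 0.706 and 0.785, and 0.000729 and 0.0435 with the replicate block). Both values rested on replicate 2 of the SOX9 siRNAs: without those arrays TLE4 had 0.18 and TLE2 0.08, and the sign of TLE2 turned. Of 10 feedback and target genes of beta-catenin 0 were called, and 8 had a negative value with a median of -0.36. AXIN2, a standard readout of the pathway, had 0.07 and LEF1 -0.33. With the replicate block 3 of the 10 passed, all lower: NRCAM with -1.14, MYC with -0.78 and TCF7L2, a TCF factor, with -0.81 (limma adjusted p = 0.000430, 0.000527 and 0.0293). The block fit called 3.01% of all probe sets for both siRNAs, and its p-values can be too small. Without replicate 2 of both SOX9 siRNAs NRCAM had -0.99, MYC -0.40 and TCF7L2 -0.30.

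SOSTDC1 and GREM1 are both antagonists of BMP ligands, so BMP genes were set beside SOSTDC1. Of 7 tested 0 were called, with a median of 0.55 against -0.03 over all probe sets, and 1 had a negative value. ID1, a direct BMP target, had 481 and 2372 with SOX9 siRNA A, 467 and 4439 with SOX9 siRNA B, and 417 and 637 with control siRNA. ID3, another, had 685 and 1825 with SOX9 siRNA A, 599 and 2333 with SOX9 siRNA B, and 488 and 816 with control siRNA. Both were high on replicate 2 of the SOX9 siRNAs, while SOSTDC1 there had 234 and 322, below control as on replicate 1. Their log2 fold changes were 1.25 and 0.85, that of BAMBI, a decoy BMP receptor, was 0.76 and that of GREM1 0.55. Pairing the arrays by number brought ID1, ID3 and BAMBI past the threshold (limma adjusted p = 1.71e-05, 0.0122 and 0.0385), against adjusted p = 0.764, 0.762 and 0.589 in the unpaired fit. The paired fit called 3.01% of all probe sets, and its p-values can be too small. Without replicate 2 of both SOX9 siRNAs ID1 had -0.12, ID3 0.02 and BAMBI 0.83.

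**Figure D4:**
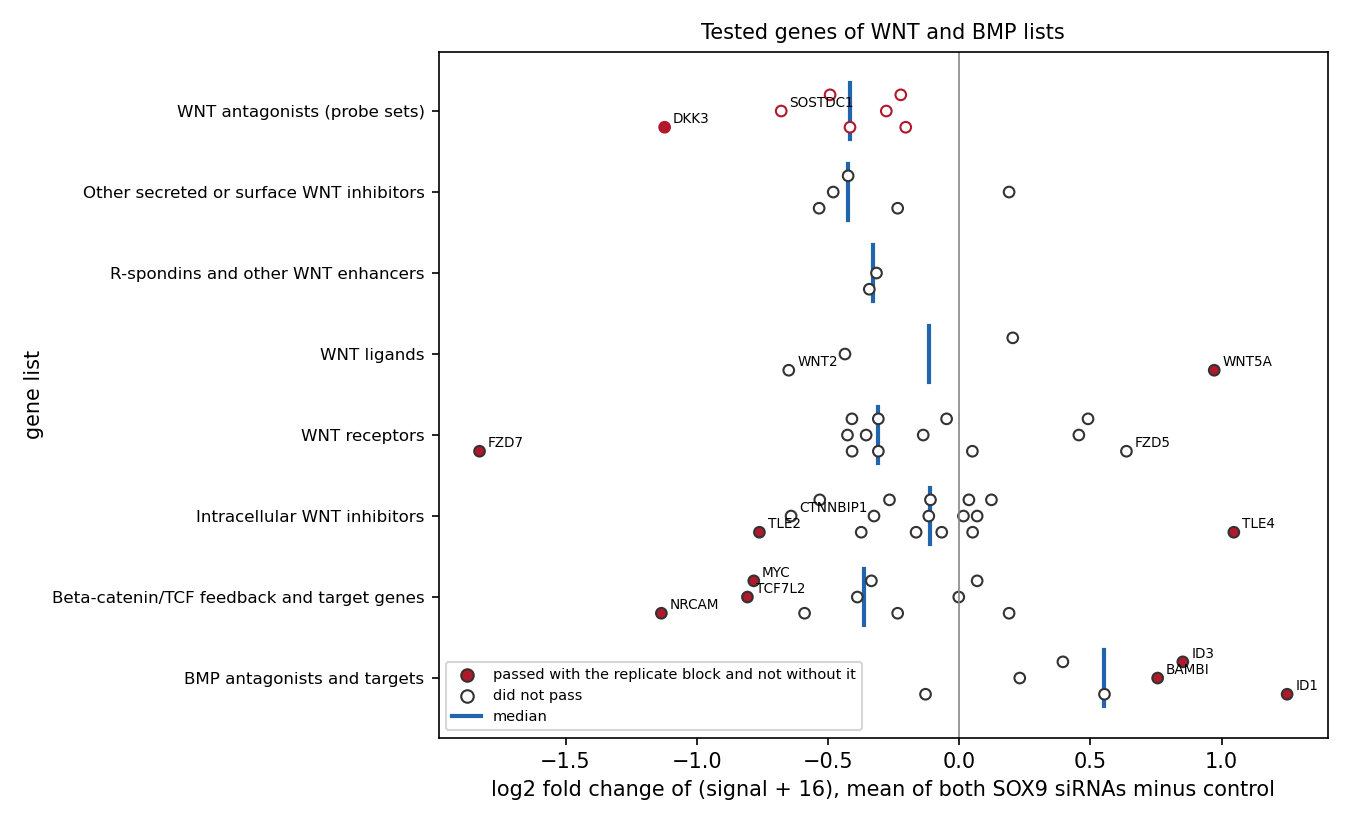
Log2 fold change for the mean of both SOX9 siRNAs minus control siRNA (x axis) of the 7 WNT antagonist probe sets and of the tested genes in 7 related lists (y axis), 1 point per probe set or gene, with the median as a blue bar and filled points for those that passed with the replicate block and not without it. The antagonists lie between -1.12 and -0.20, and the BMP list between -0.13 and 1.25.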

How the data were processed

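Signals came from Affymetrix Human Genome U133 Plus 2.0 arrays of 6 samples, hybridised with biotin-labelled cRNA made from 6 ug of total RNA, per the labels' protocols. The deposited values are linear intensity, a signal for each probe set, made with MAS5 per the submitters' processing notes. Neither its version nor its scaling target is given in the sources used here, and the deposited table has 54675 probe sets, of which 62 are controls and were left out. The 2%-trimmed mean signal ran from 143 to 189 over the arrays. Of the probe sets kept, 41091 had 1 gene symbol in the platform annotation, 1801 several and 11721 none.

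Log2(signal + 16) was tested with limma 3.58.1 in R 4.3.3 (3 group means over 6 arrays, eBayes with trend), after a filter at the median of the probe set means. The members, lists and tests were chosen with earlier results of these data known. Named genes were all 10 members, SOX9, up to 4 genes per related list (by unadjusted p), genes of a list whose role bears on a member, which were chosen after their values were seen, and the 3 genes most like each of 3 members. Genes of the lists with no probe set of their own were not analysed here. The series text calls the arrays biological duplicates. Nothing says that a replicate number marks a shared culture or day. Same-numbered arrays deviated together in each pair of groups (0.59, 0.15 and 0.15), which meets the rule used for pairing (each over 0.1). The test itself has no pairing term. The fit with the replicate number as a block is an alternative. It is given beside each fold change for both siRNAs whose call it changes, and for single siRNAs in some cases only. The number of arrays limits the precision. Alternatives were other offsets, scalings, filters, eBayes settings, units, thresholds and sets of arrays. The fits without replicate 2, or without replicates 1, of both SOX9 siRNAs took their remaining arrays as 1 group. The spread in those fits therefore includes the difference between the siRNAs.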

Additional observations from a re-analysis of the deposited data

How the results depend on the processing

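For both SOX9 siRNAs against control siRNA, 0 member probe sets were called under 20 of 22 alternatives in limma, and 1, DKK3 214247_s_at, with the replicate block, alone or with median centring (added after the data were seen). With SOX9 siRNA B alone it was 1 with the replicate block. For SOX9 siRNA A, and between the siRNAs, it was 0 under all 19 alternatives of each; the block changed no other call of a member. The range over single arrays left out was 0 to 0 in each comparison. The log2 fold change kept its sign under every alternative that tested it for DKK3 (-1.12 to -0.51), SOSTDC1 (-0.78 to -0.57), APCDD1 225016_at (-0.72 to -0.26), WIF1 (-0.38 to -0.18) and SFRP1 202037_s_at (-0.64 to -0.20). Several alternatives, such as the block, the threshold and the eBayes settings, leave the estimate as it is and could not change its sign. SFRP1 202036_s_at was at 0.065 without control siRNA replicate 1 and -0.47 without control siRNA replicate 2; the cause was not tested. DKK3 fell under the filter in 7 of the 22 alternatives, among them those without 1 control array or without replicates 1 of both SOX9 siRNAs. Without 1 replicate 2 array of a SOX9 siRNA its value was -0.88 (SOX9 siRNA A) or -0.81 (SOX9 siRNA B).

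Background at the 75th percentile of the tissue-restricted probe sets put 12 member probe sets above it (adding DKK1, NOTUM, 1 of SFRP4 and others), and at the 99th percentile 3 (SOSTDC1, WIF1 and SFRP1 202037_s_at). Probe sets with every SOX9 siRNA array below both controls were 2 of 7 after quantile normalization, 2 after median centring and 2 with a common trimmed mean, against 4 as deposited. Over all probe sets the count called for both siRNAs was 1, 821 with the replicate block, 633 with median centring added, 0 to 227 without 1 array and 952 without replicates 1 of both SOX9 siRNAs. It was 2 against 356 with the block for SOX9 siRNA A (0 to 8 without 1 array), 17 against 1528 for SOX9 siRNA B (1 to 2090; 2090 without replicate 1 of SOX9 siRNA B) and 13 against 709 between the siRNAs (0 to 589), and 0 for each after quantile normalization, median centring, a common trimmed mean or no filter. With 2 arrays a group and signals near background, DKK3 and APCDD1 are limited by the array's sensitivity.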
